A study of Caenorhabditis elegans with 24 samples.

Results

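RNA was compared between young adult Caenorhabditis elegans with and without a putative null allele of nhr-1, the gene of the nuclear receptor NHR-1. The comparison rests on 12 of the 24 libraries of the series, taken by their genotype labels: 6 libraries of the strain AM141, called 40Q, and 6 of the strain RVM293, called 40Q; nhr-1(vlt16). The series asked how UNC-1, a stomatin-like membrane protein, and NHR-1 change the aggregation of a polyglutamine protein, and it also holds the unc-1(vlt10) mutant and the double mutant, each in 6 libraries. Both groups used here carried 40Q::YFP, a run of 40 glutamines fused to yellow fluorescent protein and expressed in body wall muscle from the unc-54 promoter. Neither group received a drug or an RNA interference treatment. Both were grown from synchronised larvae to young adults on plates at 20 °C. The vlt16 allele is a nonsense point mutation, with neutral changes beside it, made with CRISPR to copy the older allele n6242, and every cell of the animal carries it. Each genotype was 1 outcrossed strain, so any other difference between the strains cannot be told apart from the allele. Every library came from RNA of a whole population of animals, enriched for polyadenylated transcripts, and the sources name the 6 libraries of a genotype biological replicates without saying how the cultures were kept apart. The p-values therefore measure the spread between these libraries.

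Nuclear hormone receptors are transcription factors whose activity can be set by small lipophilic ligands such as steroids, fatty acids or their derivatives. Nematodes have a far larger family of these receptors than mammals, and several members control genes of fat metabolism, detoxification and defence. NHR-1 has been placed downstream of SSU-1, a sulfotransferase of the ASJ sensory neurons, and is known for a role in insulin sensitivity.

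Each library held between 19599153 and 23481210 counted reads. A gene was tested where at least 6 of the 12 libraries had 10 or more counts, which 14178 of the 46778 genes in the table met. In a principal component analysis the first component took 48.6% of the variance and separated the genotypes, with 40Q libraries from -22.2 to -10.7 and nhr-1(vlt16) libraries from 12.7 to 17.1. Replicate 4 of 40Q lay farthest out on that component, and replicate 5 of nhr-1(vlt16) lay apart on the next one at -13.8. Levels are given in CPM, the counts of a gene per 1000000 counted reads, scaled with edgeR's TMM factors. Fold changes are given on the log2 scale as nhr-1(vlt16) minus 40Q, with a standard error derived from the F statistic of the edgeR test. A gene was called where the edgeR adjusted p was below 0.05 and the fold change above 2, the thresholds of the study. Markers of body wall muscle, pharynx, intestine, hypodermis, neurons, sperm and germline were all present, and the ASJ markers ssu-1 and trx-1 were below the minimum of the test with at most 8 counts in any library.

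The mutated gene was checked first. Transcripts of nhr-1, on chromosome X at 17514063 to 17528197 of the WBcel235 assembly, had 25.1, 28.6 and 29.6 CPM as the lowest, median and highest value in 40Q, and 11.2, 14.9 and 16.2 CPM in the mutant. The libraries of the genotypes did not overlap, and all 6 mutant libraries kept reads on the gene. The fold change of nhr-1 was -0.92 ± 0.074 on the log2 scale (edgeR adjusted p = 7.03e-09), 1.90-fold lower and so short of the threshold of 2. Transcripts of unc-1, the other gene mutated in the series, had a median of 8.07 CPM in 40Q and 6.19 CPM in the mutant, and the libraries overlapped (log2 fold change -0.36 ± 0.11, edgeR adjusted p = 0.0136). Of 19 tested genes that start within 100 kb of nhr-1, itself included, edgeR called 0. An adjusted p below 0.05 was found in 8 of the 19, near the share of 41.5% of all genes. At an unadjusted p below 0.05 the number was 10.

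Few genes differed by more than 2-fold between nhr-1(vlt16) and 40Q. Of the 14178 genes tested, 312 (2.2%) were called, 153 (1.08%) of them higher in nhr-1(vlt16) and 159 (1.12%) lower. At an adjusted p below 0.05 with no demand on the size, 2749 genes (19.4%) were higher and 3132 (22.1%) lower; 312 of these 5881 genes were past 2-fold. In 1121 genes (7.91%) every mutant library was above every 40Q library, and in 1544 genes (10.9%) every mutant library was below. Many called genes were weakly expressed: 95 of the 153 higher and 86 of the 159 lower had a mean level under 1 on the log2 CPM scale. The examples below are therefore drawn from genes over that level, except where a gene family is described.

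The largest fall of all genes tested was in F56A4.3, a protein-coding gene on chromosome V at 2453414 to 2456147. It had 4.61, 6.76 and 7.94 CPM as the lowest, median and highest value in 40Q, and 0 reads in all 6 mutant libraries. Summed over libraries it had 821 counts in 40Q and 0 in nhr-1(vlt16), which makes it at least 280-fold lower when the mutant is set at a floor of 3 counts over the group. The gene likewise had 1458 counts in unc-1(vlt10) and 0 in the double mutant, so its transcripts were seen in both strains with an intact nhr-1 and in neither strain with vlt16. Whether the gene itself is intact in the vlt16 strains was not tested.

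Next among the genes with a mean log2 CPM of 1 or more stood scl-6, which encodes a secreted protein of the CAP superfamily, with a median of 6.92 CPM in 40Q (5.80 to 7.63) and 1.12 CPM in the mutant (0.480 to 1.35). Its fold change was -2.77 ± 0.16 (edgeR adjusted p = 7.56e-11). Levels of tag-293 lay between 26.3 and 32.9 CPM in 40Q with a median of 29.9, and between 5.48 and 6.48 CPM in nhr-1(vlt16) with a median of 6.07. That gene was 4.93-fold lower (log2 fold change -2.30 ± 0.073, edgeR adjusted p = 3.47e-15), and none of the 12 libraries bridged the gap between the genotypes. Transcripts of sod-3, the mitochondrial manganese superoxide dismutase often used as a readout of the insulin-regulated factor DAF-16, had 3.90, 4.31 and 4.71 CPM in 40Q and 0.487, 0.912 and 1.26 CPM in the mutant. It was 4.65-fold lower (edgeR adjusted p = 9.52e-10), again without overlap. The other genes among the 12 with the largest falls were K09C6.9, B0511.11, kreg-1, Y38H6C.23, F23A7.8, C37C3.10, zig-2, which encodes a small secreted immunoglobulin-domain protein, and T24C4.4, named clc-19 and thus a claudin-like protein in the current annotation. Their log2 fold changes ran from -2.28 in K09C6.9 to -1.70 in T24C4.4.

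Among the genes named for the largest rises at a mean log2 CPM of 1 or more, M199.9 moved most, from 0.224, 0.547 and 0.749 CPM in 40Q to 3.75, 4.17 and 4.41 CPM in nhr-1(vlt16). Its fold change was 3.04 ± 0.18 (edgeR adjusted p = 1.16e-10), and the groups lay far apart. M199.9 lies on chromosome IV at 15127446 to 15127831, beside the C-type lectin gene clec-190 at 15124931 to 15126121, which also rose (log2 fold change 1.87 ± 0.12). F15E6.4, one of the genes the study took as responsive to ssu-1, had 5.91, 6.68 and 7.67 CPM in 40Q and 27.2, 35 and 39.3 CPM in the mutant. It was 5.12-fold higher (log2 fold change 2.35 ± 0.089, edgeR adjusted p = 3.21e-14), with every mutant library above every 40Q library. Levels of amt-1, a member of the ammonium transporter family, rose from 6.96, 8.13 and 8.72 CPM to 28.4, 32.4 and 35.1 CPM. The groups were apart by more than the whole range within either of them, and the fold change was 1.98 ± 0.069 (edgeR adjusted p = 1.05e-14). The remaining genes among the 12 largest rises were F59C6.18, Y9C9A.16, Y49G5A.1, B0563.10, F13H8.8, the pseudogene sdz-29, T24D5.6 and R102.6. Their log2 fold changes ran from 2.33 in F59C6.18 to 1.42 in R102.6.

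**Figure D1:**
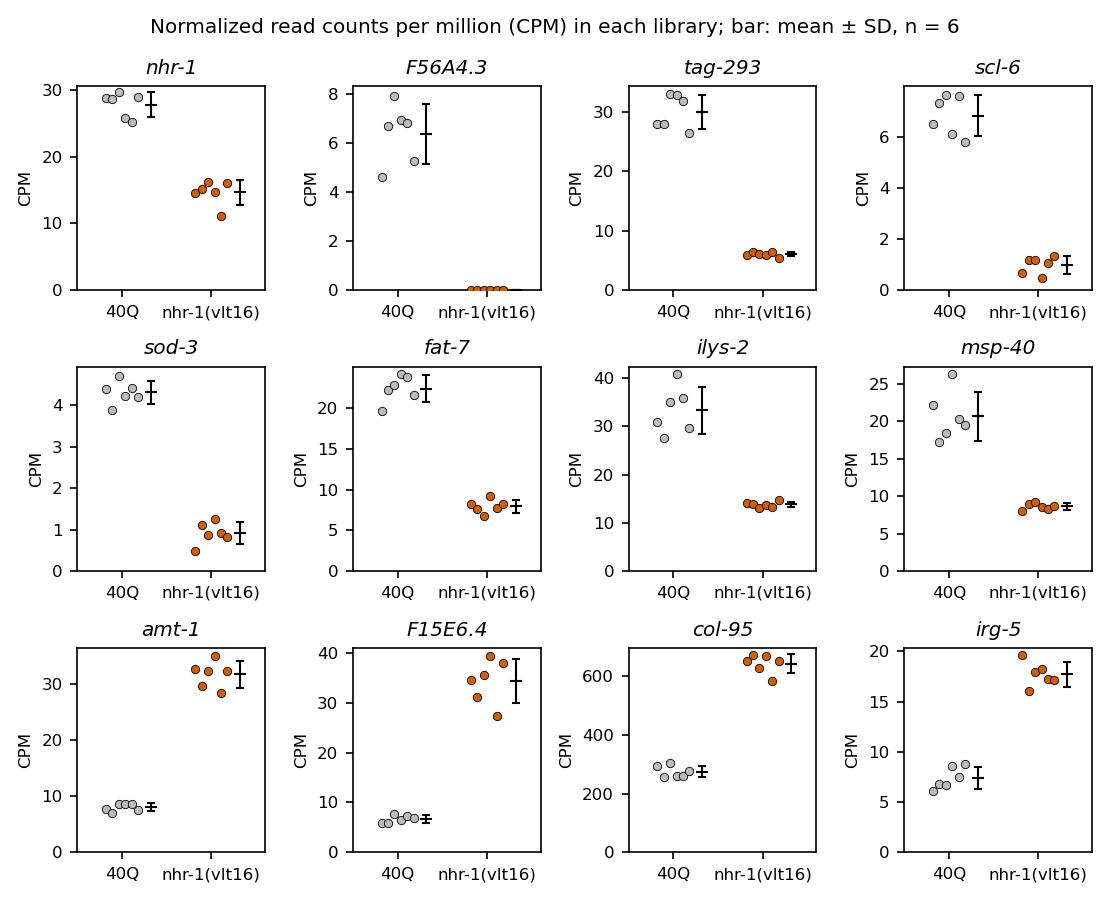
Level in CPM (linear axis from 0) of 12 genes in each of the 6 libraries of 40Q (grey) and of nhr-1(vlt16) (orange), with the mean and SD beside the points. In every panel the points of the genotypes are apart: F56A4.3 is at 0 in all mutant libraries, and amt-1 sits between 28.4 and 35.1 CPM in the mutant against 6.96 to 8.72 CPM in 40Q.

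F-box genes, which encode the substrate-binding subunits of SCF ubiquitin ligases and form one of the largest families of the nematode genome, lay on the higher side. Of 253 tested members, 17 (6.72%) were called higher against 1.08% of all genes, and 2 were called lower. At the adjusted p alone 119 (47.0%) were higher against 19.4% of all genes, and 16 were lower. With a filter of 1 CPM in 6 libraries, 4 members were called higher and 1 lower, and 99 were higher at the adjusted p alone. The median log2 fold change of the family was 0.37, where that of all genes tested was -0.01. The branches differed: all 99 tested fbxb genes had a fold change above 0, where 48.9% of all genes were above and 51.1% below, with 12 called higher, 0 called lower and a median of 0.61, and the 32 fbxc genes had 2 called higher and a median of 0.51. The 122 fbxa genes had 3 called higher and 2 called lower, with a median of 0.08. The split by branch was made after the values had been seen.

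Most of the calls were among weakly expressed members. Of the F-box, MATH and BTB genes with a mean log2 CPM over 1, 4 of 205 (1.95%) were called higher, where 0.522% of all genes of that level were, and of those under 0 it was 13 of 54 (24.1%), where 3.43% were. fbxb-6 had 0.288, 0.585 and 0.831 CPM in 40Q and 0.979, 1.43 and 1.83 CPM in nhr-1(vlt16), with a log2 fold change of 1.38 ± 0.23 (edgeR adjusted p = 6.97e-05). The libraries of fbxb-6 did not overlap. Also called higher were fbxb-2 at 1.28 ± 0.18, fbxc-39 at 1.21 ± 0.16 and fbxa-180 at 1.28 ± 0.16, of which fbxa-180 is annotated as a pseudogene. On the lower side, fbxa-24 had 10.2, 12.8 and 13.5 CPM in 40Q and 4.72, 5.87 and 6.85 CPM in the mutant (log2 fold change -1.09 ± 0.094, edgeR adjusted p = 2.2e-08). It was lower where most of its family was higher, with no overlap between the groups. Summed over all fbxb genes, the level was 137 to 193 CPM in the 6 libraries of 40Q and 232 to 268 CPM in those of nhr-1(vlt16). F-box genes include near-identical copies, and how reads shared by copies were counted can move values of single members.

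MATH and BTB genes, some of which encode adaptors of CUL-3 ubiquitin ligases, moved to the same side. Of 81 tested members 7 (8.64%, against 1.08% of all genes) were called higher and 1 lower. Of the same genes 37 (45.7%, against 19.4%) were higher and 5 lower at the adjusted p alone, and the median was 0.22. btb-13, annotated as a pseudogene, rose from 0.435, 0.566 and 0.768 CPM to 1.02, 1.32 and 1.87 CPM (log2 fold change 1.29 ± 0.21, edgeR adjusted p = 7.43e-05). Its neighbour btb-12 rose by 1.22 ± 0.19 and math-44 by 1.16 ± 0.19. math-35 rose by 1.22 ± 0.21 although its libraries overlapped, and bath-25 was lower at -1.64 ± 0.30. The F-box and MATH or BTB genes on chromosome II, 163 of those tested, had a median of 0.46 and the 171 elsewhere a median of 0.19. The 33 tested proteasome genes, the protease that SCF and CUL-3 ligases feed, held 0 called genes and had a median of 0.02.

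**Figure D2:**
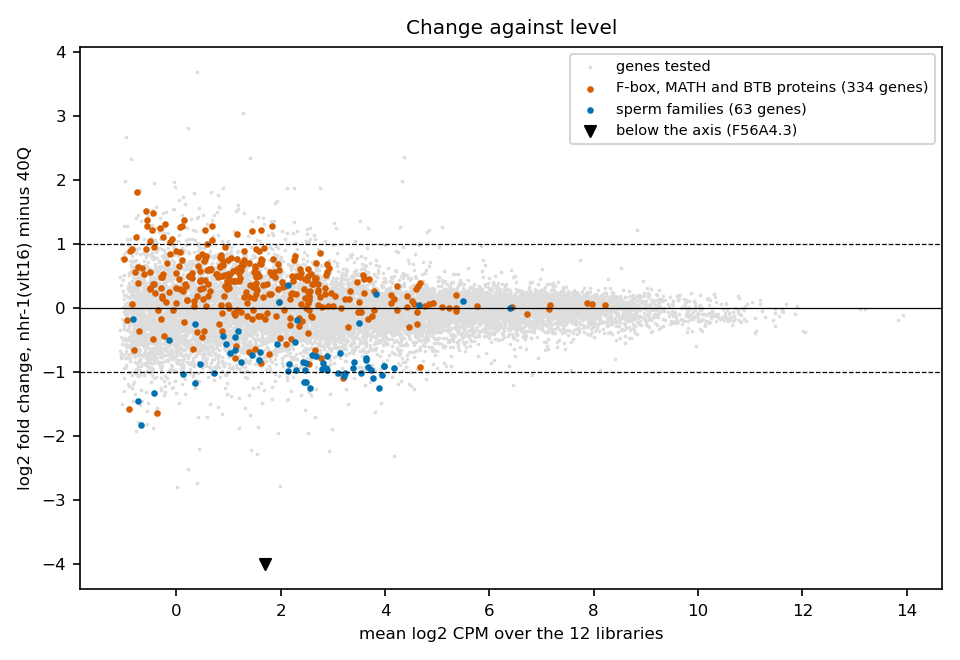
Log2 fold change of each tested gene (vertical axis, nhr-1(vlt16) minus 40Q) against its mean log2 CPM over the 12 libraries (horizontal axis), with F-box, MATH and BTB genes in orange, sperm families in blue and dashed lines at 2-fold. Most orange points lie above 0 and at low levels, the blue points lie mostly between 0 and -1.82, and F56A4.3 is drawn at the lower edge because its fold change cannot be shown to scale.

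Genes expressed in sperm were lower. The 63 tested genes of the major sperm proteins and related sperm families held 16 (25.4%) called lower against 1.12% of all genes, and 0 called higher. At the adjusted p alone 50 (79.4%, against 22.1%) were lower and 3 (4.76%, against 19.4%) higher, and the median was -0.86. The 28 tested msp genes, whose products form the sperm cytoskeleton and also signal to oocytes, were all lower at the adjusted p alone, with 12 of them called and a median of -0.97. msp-40 had 17.2, 19.9 and 26.3 CPM in 40Q and 8.08, 8.64 and 9.26 CPM in the mutant (log2 fold change -1.25 ± 0.088, edgeR adjusted p = 1.04e-09), without overlap. Called as well were msp-81 at -1.10 ± 0.10, msp-36 at -1.05 ± 0.099 and msp-19 at -1.01 ± 0.077. Of the 12 spe genes, needed for sperm development and function, 0 were called. At the adjusted p alone 3 (25%, against 19.4% of all genes) were higher and 3 (25%, against 22.1%) lower.

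The sperm result leaned in part on single libraries near the 2-fold line. Without replicate 4 of 40Q the number of sperm genes called lower was 10, and without that library and replicate 5 of nhr-1(vlt16) it was 8, while the numbers lower at the adjusted p alone were 50 and 48. The msp genes are close copies of each other, so single values are uncertain while their sum is less so: it was 298 to 418 CPM in 40Q and 151 to 188 CPM in nhr-1(vlt16). The 4 sperm markers summed to 20.4 to 29 CPM in 40Q and 11.4 to 13.7 CPM in the mutant. Fewer sperm per animal and less RNA per sperm cannot be told apart in RNA from whole animals, and the same holds for every cell type below.

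Oocyte and embryo transcripts went the other way by small amounts. Of 33 tested oocyte and eggshell genes 23 (69.7%, against 19.4% of all genes) were higher at the adjusted p alone and 0 lower. The median was 0.12, with 0 past 2-fold. mex-3, an RNA-binding regulator of the early embryo, was highest of these genes at 0.30 (mean of 608 CPM against 493). The number higher was 16 without replicate 4 of 40Q and replicate 5 of nhr-1(vlt16). The 3 embryo markers that could be tested summed to 8.35 to 13.3 CPM in 40Q and 12.4 to 15.9 CPM in nhr-1(vlt16), with 1 of them, pes-10, higher at the adjusted p alone. All 6 vitellogenins, the yolk proteins made in the intestine, had fold changes between -0.19 and -0.01. At the adjusted p alone 4 (66.7%, against 22.1% of all genes) were lower, and 0 were called. The share of animals at each stage of egg production was not tested as a source of these differences.

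Of 31 tested members of the nematode-specific peptide groups, 3 (9.68%, against 1.12% of all genes) were called lower, and the median was -0.58. At the adjusted p alone 19 (61.3%, against 22.1%) were lower and 4 (12.9%, against 19.4%) higher. The 9 nspd genes among them also belong to the sperm list above, so that 7 of the 19 and 1 of the 3, nspd-3, repeat that result. Without replicate 2 of 40Q 5 members were called. nspd-3 was lower at -1.82 ± 0.31, nspc-19 at -1.35 ± 0.11 and nspc-18 at -1.26 ± 0.095 on the log2 scale. nspc-18 had 10.6, 14.1 and 15.1 CPM in 40Q and 5.08, 5.63 and 6.18 CPM in the mutant, without overlap. The 4 tested nspe genes were the exception and all 4 were higher at the adjusted p alone, by 0.42 to 0.92.

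Genes of innate defence changed in both directions. Of 74 lysozyme and antimicrobial peptide genes 7 (9.46%, against 1.12% of all genes) were called lower and 2 (2.7%, against 1.08%) higher. Counted at the adjusted p alone, 43 (58.1%, against 22.1%) were lower and 8 (10.8%, against 19.4%) higher, with a median of -0.28. ilys-2, an invertebrate-type lysozyme, had 27.6, 33 and 40.9 CPM in 40Q and 13.2, 13.9 and 14.7 CPM in nhr-1(vlt16) (log2 fold change -1.27 ± 0.078, edgeR adjusted p = 1.6e-10). The mutant libraries of ilys-2 were close together and all below the lowest 40Q library. The lysozyme lys-5 and the peptide genes fipr-10 and fipr-7 were also lower, at -1.18 ± 0.19, -1.40 ± 0.16 and -1.17 ± 0.21. The 7 tested infection response genes of the irg class were split. Of them 2 (28.6%, against 1.08% of all genes) were called higher and 1 (14.3%, against 1.12%) lower. At the adjusted p alone 3 (42.9%, against 19.4%) were higher and 3 (42.9%, against 22.1%) lower, and their median was -0.02. Those called higher were irg-5 and irg-6. irg-5 rose from 6.13, 7.17 and 8.84 CPM to 16.1, 17.6 and 19.7 CPM (log2 fold change 1.25 ± 0.086, edgeR adjusted p = 8.57e-10), and irg-6 rose by 1.53 ± 0.24 from a median of 0.308 CPM.

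C-type lectins, carbohydrate-binding proteins of which many answer to microbes, were mostly on the lower side. Of 99 tested lectins 7 (7.07%, against 1.12% of all genes) were called lower, and the median was -0.27. The 1 lectin called higher, clec-190, made up 1.01%, near the 1.08% of all genes. At the adjusted p alone 37 (37.4%, against 22.1%) were lower and 13 (13.1%, against 19.4%) higher. The number called lower was 4 without replicate 3 of 40Q and 15 with no filter on low counts. clec-10 had 15.1, 20.3 and 23.1 CPM in 40Q and 9.07, 9.68 and 10.9 CPM in the mutant, without overlap, for a log2 fold change of -1.01 ± 0.088 that lies at the 2-fold line. clec-43, clec-26 and clec-5 were lower, at -1.07 ± 0.12, -1.09 ± 0.14 and -1.13 ± 0.14. Under 12 of 21 alternatives the fold change of clec-10 fell short of 2, with a range of -1.07 to -0.94 over all of them.

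Fatty acid synthesis genes were the family the study followed. In nhr-1(vlt16) alone they were slightly lower: 15 of 23 (65.2%) were lower at the adjusted p alone against 22.1% of all genes, 0 were higher, and the median was -0.18. Past 2-fold lay 1 gene. fat-7, a stearoyl-CoA desaturase that makes oleic acid, had 19.6, 22.5 and 24.1 CPM in 40Q and 6.83, 8.0 and 9.20 CPM in the mutant (log2 fold change -1.48 ± 0.074, edgeR adjusted p = 4.41e-12), 2.79-fold lower. No mutant library reached the lowest 40Q library. Its close paralog fat-6, with which it could share reads, had medians of 359 and 316 CPM and overlapping libraries (-0.18 ± 0.042, edgeR adjusted p = 0.00174).

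The other members that passed the test were lower by at most 1.31-fold. fat-3, the delta-6 desaturase of polyunsaturated fatty acids, was lower at -0.39 ± 0.050 with no overlap (104 to 128 CPM against 80.9 to 92.5). Among the elongases elo-1, elo-2, elo-3 and elo-9 were lower at the adjusted p alone, at -0.28, -0.25, -0.19 and -0.33. Acetyl-CoA carboxylase pod-2 and fatty acid synthase fasn-1, which start the pathway, were lower at -0.17 ± 0.035 and -0.22 ± 0.041. The test was not passed by elo-5 and elo-6, which make branched-chain fatty acids (-0.11 ± 0.048 and 0.03 ± 0.052), nor by the desaturase fat-5 at 0.00 ± 0.073. It was also not passed by the regulators sbp-1 and mdt-15, at -0.02 ± 0.050 and 0.01 ± 0.037. Their libraries overlapped in each case.

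**Figure D3:**
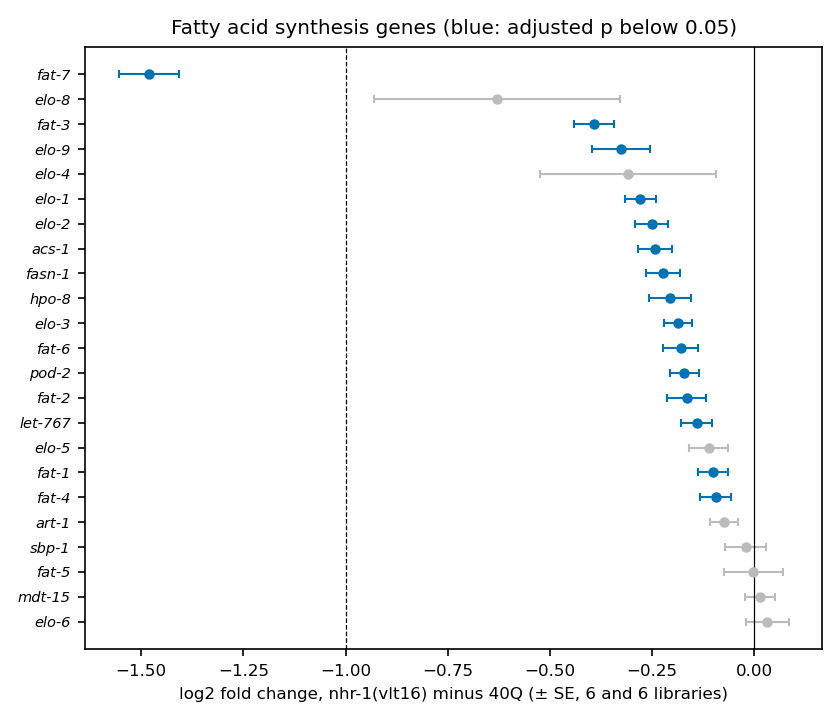
Log2 fold change (horizontal axis, nhr-1(vlt16) minus 40Q, bars 1 SE, 6 and 6 libraries) of the 23 fatty acid synthesis genes tested, in blue where the adjusted p was below 0.05. fat-7 at -1.48 is the only gene left of the dashed 2-fold line, and most others lie between -0.39 and 0.03.

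Genes that activate and oxidise fatty acids were called in neither direction. Of 61 tested, 19 (31.1%, against 22.1% of all genes) were lower and 10 (16.4%, against 19.4%) higher at the adjusted p alone, and the median was -0.08. The lowest adjusted p belonged to cpt-4, a carnitine palmitoyltransferase, at -0.87 (means of 39.2 and 21.5 CPM), and acs-17 was lower at -0.42. Both were picked after their values had been seen. Of 17 lipases 1 was called, lips-14, which is annotated as a pseudogene and rose by 1.98 ± 0.30 from a median of 0.140 CPM to 0.590 CPM. Lipid-binding proteins held 0 called genes of 9.

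The sterol and dafachronic acid pathway, which makes the ligands of the nuclear receptor DAF-12, held 0 called genes of 13. ncr-1, a Niemann-Pick type C homolog that moves cholesterol out of lysosomes, was lower at -0.53 ± 0.062 (38.1 to 48.1 CPM in 40Q and 27.6 to 34.4 CPM in the mutant, edgeR adjusted p = 1.13e-06), without overlap. daf-9, the cytochrome P450 that completes dafachronic acid synthesis, was higher at 0.44 ± 0.13 (edgeR adjusted p = 0.0102) with overlapping libraries. daf-36, the oxygenase that begins that synthesis, was lower at -0.17 ± 0.061 (17.1 to 21.6 CPM in 40Q and 16.6 to 18.4 CPM in the mutant, edgeR adjusted p = 0.0355), also with overlap. The receptor daf-12 itself had medians of 22.1 and 21.6 CPM and a log2 fold change of 0.01 ± 0.067. Among the sulfatases, sul-1 at 0.06 ± 0.14, sul-2 at -0.13 ± 0.13 and sul-3 at 0.08 ± 0.13 did not pass the test either.

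Of 177 tested genes of nuclear hormone receptors 2 (1.13%, near the 1.08% of all genes) were called higher and 0 lower. These were nhr-147 at 1.02 ± 0.25 and the annotated pseudogene nhr-144 at 1.06 ± 0.19. Both calls hung on single libraries: without replicate 5 of 40Q 0 were called by edgeR, and nhr-147 fell short of 2-fold in 5 of 20 alternatives. At the adjusted p alone 25 (14.1%) were higher and 36 (20.3%) lower with a median of -0.04, where 19.4% and 22.1% of all genes were. Of 22 genes that the study listed as responsive to loss of ssu-1, 15 could be tested, and the study took them from earlier work on ssu-1. Of those tested 26.7% were higher at the adjusted p alone, where 19.4% of all genes were, and 0 were lower. F15E6.4 was called, and 3 more were among those higher. Among those 3, lea-1, which encodes a protein of the late embryogenesis abundant group tied to water loss, was higher at 0.19. The 10 osmotic and glycerol genes held 0 called, and gpdh-1, the glycerol-3-phosphate dehydrogenase that answers to osmotic stress, was at 0.08 with an edgeR adjusted p of 0.19.

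Detoxification genes held few calls past 2-fold. Of 61 cytochrome P450 genes 4 (6.56%, against 1.12% of all genes) were called lower and 0 higher, with a median of -0.06. The number called lower was 2 without replicate 3 of 40Q and likewise without replicate 3 of nhr-1(vlt16). At the adjusted p alone 20 (32.8%, against 22.1% of all genes) were lower and 6 (9.84%, against 19.4%) higher. cyp-13A5 had 22.6, 31.4 and 36.1 CPM in 40Q and 10.5, 14 and 15.9 CPM in nhr-1(vlt16) (log2 fold change -1.19 ± 0.11, edgeR adjusted p = 3.41e-08), with the genotypes apart. cyp-34A10, cyp-35A4 and cyp-34A7 were lower, at -1.70 ± 0.23, -1.04 ± 0.17 and -1.03 ± 0.19 from medians of 1.47 to 2.44 CPM. Of 41 glutathione S-transferases 1 was called, gst-15, which rose from 3.50, 4.60 and 5.30 CPM to 9.39, 11.4 and 13 CPM (log2 fold change 1.32 ± 0.10, edgeR adjusted p = 4.44e-09). At the adjusted p alone 15 others of that family (36.6%, against 22.1% of all genes) were lower and 4 (9.76%, against 19.4%), gst-15 included, were higher. UDP-glucuronosyltransferases held 0 called genes of 56 and had a median of -0.15. At the adjusted p alone 22 (39.3%, against 22.1% of all genes) were lower and 5 (8.93%, against 19.4%) higher.

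Of 126 tested cuticle collagens 2 (1.59%) were called higher and 2 (1.59%) lower, near the 1.08% and 1.12% of all genes. col-95, a cuticle collagen, rose from 257, 268 and 303 CPM to 583, 650 and 670 CPM. Its fold change was 1.22 ± 0.044 (edgeR adjusted p = 1.63e-14), and the genotypes were far apart. Of the other 125 tested collagens 1 was called higher, col-54, and 2 lower, col-141 at -1.24 ± 0.15 and col-90 at -1.35 ± 0.41. The call of col-54 was lost without replicate 3 or 4 of 40Q and without replicate 2 of nhr-1(vlt16). With no demand on size 38 collagens (30.2%, against 22.1% of all genes) were lower and 7 (5.56%, against 19.4%) higher at the adjusted p, and the median was -0.25. Among 82 molting and hedgehog-related genes 1 was called, grd-13, a ground-like protein, at -1.48 ± 0.15 (3.74 to 5.52 CPM against 1.07 to 1.90).

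Neuropeptide, muscle and ribosomal protein genes were mostly lower, by less than 2-fold. Of 103 neuropeptide and insulin genes 69 (67%, against 22.1% of all genes) were lower at the adjusted p alone and 0 were higher. The list held 0 called genes and had a median of -0.46, and 26 of 30 flp genes were among those lower. ins-7, an insulin-like ligand, fell from a mean of 6.90 to 3.77 CPM (-0.87), and flp-17, an FMRFamide-like peptide of sensory neurons, from 11.1 to 6.43 CPM (-0.78). These examples were the ones with the lowest adjusted p. The 5 markers of neurons in general summed to 281 to 304 CPM in 40Q and 274 to 287 CPM in the mutant, with 2 of 5 lower at the adjusted p alone. Most of that sum was snb-1, with means of 231 and 232 CPM and a log2 fold change of 0.005. The log2 fold changes of rab-3, unc-64, unc-13 and rgef-1 were -0.29, -0.30, -0.19 and -0.18. The part of neuron content in the neuropeptide result was not tested.

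Muscle genes showed this at a smaller size. Of 37 sarcomere genes 33 (89.2%, against 22.1% of all genes) were lower at the adjusted p alone, 0 higher and 0 called, and the median was -0.25. unc-54, the body wall myosin heavy chain whose promoter also drives the 40Q::YFP transgene, had a mean of 2484 CPM in 40Q and 1900 CPM in the mutant, a log2 fold change of -0.39. The pharyngeal myosins myo-1 and myo-2 were lower at -0.64 and -0.59. The transgene had no row of its own in the table used here, so its level was not analysed. Ribosomal protein genes were lower in 73 of 80 cases (91.2%, against 22.1%) at the adjusted p alone, with 0 higher and a median of -0.17. Among them rpl-41.2 had the lowest adjusted p at -0.59. Heat shock proteins held 0 called genes of 22, with 7 (31.8%, against 22.1%) lower and 4 (18.2%, against 19.4%) higher at the adjusted p alone. In all, edgeR called 0 genes in 14 of the 29 lists, and DESeq2 called 0 in the same 14. At an unadjusted p below 0.05 those lists held up to 78 lower genes, in the ribosomal proteins, and up to 25 higher genes, in the oocyte and eggshell list.

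**Figure D4:**
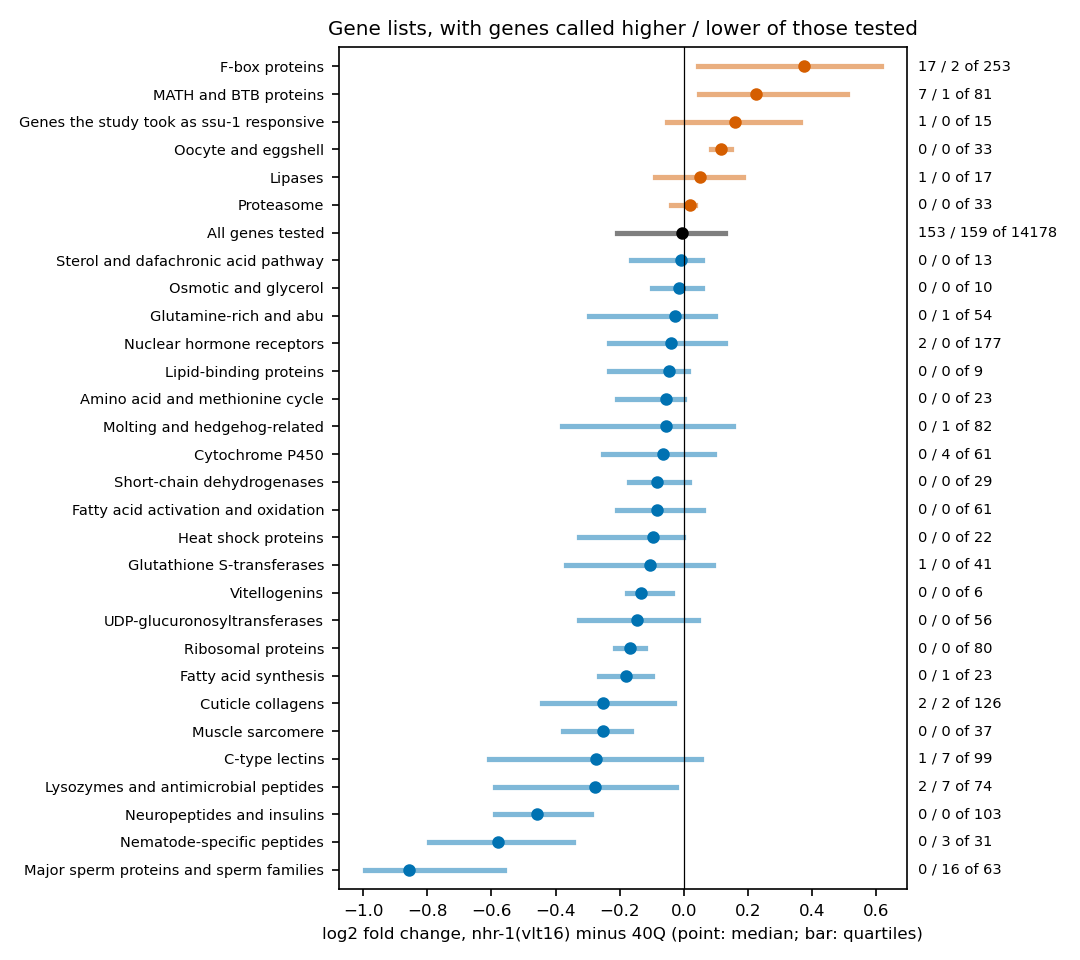
Median (point) and quartiles (bar) of the log2 fold change, nhr-1(vlt16) minus 40Q, in each gene list and in all 14178 genes tested, with the number called higher and lower on the right. F-box genes at 0.37 and MATH and BTB genes at 0.22 lie highest, and sperm families at -0.86, nematode-specific peptides at -0.58 and neuropeptides at -0.46 lie lowest.

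The same allele was also sequenced in unc-1(vlt10) animals, and the double mutant and unc-1(vlt10) libraries share no sample with those above. In that background 491 of the same 14178 genes (3.46%) were higher and 315 (2.22%) lower in the double mutant than in unc-1(vlt10). Of the 153 genes called higher in 40Q, 82 (53.6%) were above 0 there, where 49.5% of all genes were, and 30 (19.6%) were again called higher. Of the 159 called lower in 40Q, 112 (70.4%) were below 0, where 50.5% of all genes were, and 49 (30.8%) were again called lower. The genes shared in this way were 6.11% of all genes called higher and 15.6% of all called lower in the unc-1(vlt10) background. Calls in the opposite direction were made for 3 of the 153 and 4 of the 159.

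The difference between the effects was tested for each gene with all 24 libraries. It passed both thresholds in 1196 genes (8.44%) of all tested, above 0 in 5.59% and below 0 in 2.84%. The difference passed in 89 of the 153 called higher and in 82 of the 159 called lower. These called genes were chosen by a large change between libraries that also enter the difference. Differences of the opposite sign were therefore favoured by the choice, so the counts among called genes cannot be weighed against the 8.44%. scl-6 and sod-3 were again called lower, at -2.38 and -2.53, and the differences of effects of 0.41 and -0.29 did not pass (edgeR adjusted p = 0.15 and 0.26), which does not show the effects to be equal. tag-293 was lower still there, at -3.15, with a difference of effects of -0.82, under 2-fold. Among the genes that rose, F59C6.18 and R102.6 were also called higher there, at 3.00 and 1.16.

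For other genes the unc-1(vlt10) strain differed from 40Q on the side of the nhr-1 mutant. amt-1 had medians of 26.6 CPM in unc-1(vlt10) animals and of 32.2 CPM in the double mutant, and the log2 fold change of 0.25 there was not called (difference of effects -1.71, edgeR adjusted p = 3.3e-14). F15E6.4 had medians of 20.8 and 29.9 CPM in those strains and was still higher in the double mutant, by 0.62 (edgeR adjusted p = 1.19e-06), and its difference of effects was -1.72 (edgeR adjusted p = 2e-11). fat-7 was low in both, with medians of 7.66 and 8.39 CPM, and its difference was 1.65 (edgeR adjusted p = 4.4e-13). elo-5 and elo-6 showed the reverse. They did not pass the test in 40Q but rose in unc-1(vlt10) from medians of 34.4 to 133 CPM and of 45.0 to 229 CPM when nhr-1 was mutated. Gene families differed as well. The F-box median there was -0.16, with 4 of 253 called higher and 25 lower. Sperm families had a median of -0.06, with 0 of 63 called higher and 0 lower. Collagens had a median of 0.66, with 36 of 126 called higher and 0 lower. Of all genes 3.46% were called higher there and 2.22% lower.

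**Figure D5:**
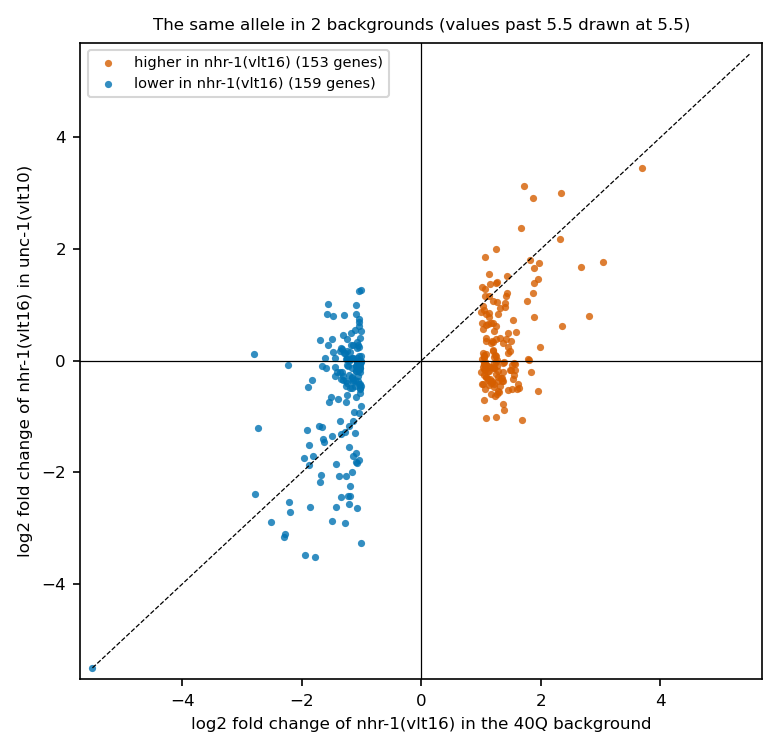
Log2 fold change of the nhr-1(vlt16) allele in unc-1(vlt10) animals (vertical axis, double mutant minus unc-1(vlt10)) against that in 40Q animals (horizontal axis) for the genes called higher (153, orange) and lower (159, blue) in 40Q, with the line of equal effects dashed. Of the blue points 112 of 159 lie below 0 on the vertical axis, and of the orange points 82 of 153 lie above it, and F56A4.3 is drawn at the lower left corner because its values go past the axes.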

How the data were processed

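Gene-level counts and FPKM values for all 24 libraries were deposited by the authors as 2 tables. Per the study's methods and the submitters' processing notes, reads were aligned with HISAT2 2.0.5 to the WBcel235 assembly and counted per gene with HTSeq 0.6.1, and those notes also list DESeq2 1.24.0. The strand setting of the counting is not given in the sources used here, so reads of overlapping and antisense genes cannot be told apart. The deposited counts were raw whole numbers, and the FPKM values, which the authors scaled for length and depth, were read only as a check of marker levels. The 6 deposited tables of the authors' own comparisons hold group means, fold changes and p-values and were not used.

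The counts of 40Q and nhr-1(vlt16) were fitted with edgeR 4.0.16 in R 4.3.3 by its quasi-likelihood test, with TMM scaling and Benjamini-Hochberg adjustment over the 14178 genes that had at least 10 counts in 6 or more of the 12 libraries. The difference of effects between backgrounds was a contrast over all 24 libraries and the same genes. The fit was tested on simulated data before use. Pairs of libraries of one genotype differed by more than counting noise, so none was taken for a repeat deposit of another, and whether they came from separate cultures was not tested. Standard errors were derived from the test, as the absolute log2 fold change over the square root of its F statistic. The floor of 3 counts covers counting error only.

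Genes were named by rule: nhr-1 and unc-1, the 12 largest changes in each direction among called genes whose genotypes did not overlap and whose log2 CPM averaged 1 or more, up to 4 called members per gene list and direction by adjusted p, and all fatty acid synthesis and sterol genes. F56A4.2, mct-2 and the examples from lists without called genes were chosen after their values were seen. The members and the 29 gene lists were chosen with earlier results of these data known. Positions and biotypes are those of Ensembl release 115, which held 14147 of the genes tested. The alternatives were RLE factors, total counts alone, DESeq2 1.42.0, other filters on low counts, a replicate block, all 24 libraries in one fit, the adjusted p alone and leaving out each library. Leaving out 40Q replicate 4 together with nhr-1(vlt16) replicate 5 was added after seeing the data.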

Additional observations from a re-analysis of the deposited data

Results flagged for a closer look

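A library stood far from the other 5 of its genotype by Dixon's test in 10 of 212 groups, taken over 106 named genes in both genotypes, and chance gives about 1 group in 20. Replicate 5 of nhr-1(vlt16) was the lowest of its group in 4 genes: nhr-1 itself at 11.2 CPM (14.6 to 16.2 in the others), F59C6.18 at 2.98 CPM (4.48 to 4.63), T24D5.6 at 2.05 CPM (3.23 to 3.66) and fbxa-180 at 2.85 CPM (4.72 to 5.85). Replicate 4 of 40Q was the highest of its group in 3: mct-2 at 17 CPM (5.52 to 6.49), F56A4.2 at 31.1 CPM (17 to 21.5) and fipr-7 at 4.18 CPM (2.00 to 2.55). Replicate 4 of nhr-1(vlt16) was highest for C37C3.10 at 1.44 CPM (0.695 to 0.935) and for mct-2 at 4.76 CPM (2.90 to 3.47). Replicate 1 of nhr-1(vlt16) was lowest for mdt-15, a subunit of the Mediator complex, at 188 CPM (207 to 215).

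The effect of the vlt16 allele differed between the unc-1(vlt10) and 40Q backgrounds, by edgeR's test of the difference and by more than 2-fold, in 42 of the 106 named genes. Among all genes tested the share was 8.44%. Many named genes were chosen by their change in 40Q, and the same libraries enter the difference. Differences of the opposite sign were therefore favoured by the choice. Differences below are the log2 fold change in unc-1(vlt10) minus that in 40Q. Among genes called higher in 40Q they were -1.25 for M199.9, -1.72 for F15E6.4, -1.71 for amt-1, -1.08 for Y9C9A.16, -2.11 for F13H8.8, -2.09 for sdz-29, -1.80 for T24D5.6, -1.20 for nhr-144 and -1.14 for the collagen col-95. In the F-box and MATH or BTB families they were -1.23 for fbxb-2, -1.38 for fbxb-6, -1.34 for btb-12, -1.46 for math-44, -1.63 for btb-13 and -1.33 for math-35. The exception among the genes called higher was Y49G5A.1, which had a difference of 1.06.

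Genes called lower in 40Q mostly had differences above 0. They were 2.18 for B0511.11, 1.45 for F23A7.8, 1.65 for fat-7, 2.31 for cyp-35A4, 2.31 for grd-13, 1.50 for nspd-3 and 2.45 for fbxa-125. In defence genes they were 2.30 for clec-10, 1.43 for clec-43, 2.11 for clec-26, 1.21 for clec-5, 1.32 for ilys-2, 1.49 for lys-5 and 1.69 for fipr-7. In collagens and major sperm proteins they were 1.19 for col-141, 1.60 for col-90, 1.02 for msp-19 and 1.03 for msp-81. The exceptions were Y38H6C.23 at -1.51 and cyp-13A5 at -1.03. Of the fatty acid genes not called in 40Q, elo-6 had a difference of 2.39, elo-5 of 2.08, elo-2 of 1.67, fat-5 of 1.64, the acyl-CoA synthetase acs-1 of 1.20 and elo-9 of 1.02.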

How the results depend on the processing

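The counts of called genes moved most with the filter and the threshold. With no filter on low counts 325 genes were higher and 327 lower, and with a filter of 1 CPM in 6 libraries 91 were higher, which follows from the number of weakly expressed genes tested. At the adjusted p alone the counts were 2749 and 3132. RLE factors, total counts alone, DESeq2, filterByExpr and all 24 libraries in one fit gave between 147 and 167 higher and between 141 and 176 lower. Leaving out single libraries gave 134 to 193 higher and 135 to 202 lower, and without 40Q replicate 4 and nhr-1(vlt16) replicate 5 the counts were 161 and 125. The count of genes with a difference of effects between backgrounds was 1134 to 1700 under its alternatives. Samples with the same number did not deviate together (correlations of -0.12 to 0.031, and 0 of 6 libraries correlated best with their own number), and the fit with a replicate block called 158 higher and 165 lower and 1189 genes with a difference of effects. Over the named genes and their alternatives, 2166 values stayed on their side of the threshold, 49 called values fell short of it and 0 called values turned sign. These 49 belonged to 14 genes. Without replicate 4 of 40Q the log2 fold change was -0.83 in mct-2 (in place of -1.20), 0.92 in col-54, -0.96 in clec-10, -0.97 in msp-36, -0.98 in msp-19 and just short of the threshold in fipr-7, which came to -0.89 when nhr-1(vlt16) replicate 5 was left out too. Leaving out both also put msp-81 at -0.99 and clec-26 at -0.98. Without replicate 3 of 40Q the values were -0.96 in cyp-34A7 and cyp-35A4, 0.98 in col-54 and -0.99 in clec-43. Without replicate 2 of 40Q nhr-147 was at 0.89, and without replicate 5 of 40Q nhr-144 was at 0.96. Other single libraries of either genotype moved clec-10, msp-19, cyp-34A7, cyp-35A4, col-54, nhr-144 and nhr-147 to values between 0.94 and 0.99 on the higher side, and to -0.97 or nearer the threshold on the lower side. col-90 kept its size but not its adjusted p with DESeq2. Genes under 10 counts in most libraries, ssu-1 among them, could not be tested at this depth.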

Other observations

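Genes annotated as pseudogenes were on the higher side in nhr-1(vlt16). Of 412 tested, 44 (10.7%, against 1.08% of all genes) were called higher and 2 (0.485%, against 1.12%) lower. At the adjusted p alone 204 were higher and 23 lower, where 19.4% and 22.1% of all genes were. The median log2 fold change was 0.35. Outside the F-box and MATH or BTB lists, 359 pseudogenes had 35 (9.75%) called higher, 2 (0.557%) called lower and a median of 0.33. The median was 0.38 where the mean log2 CPM was under 0, 0.50 between 0 and 1, and 0.30 over 1, where all genes of those levels had medians of -0.09, -0.06 and 0.00. Of the 153 genes called higher, 59 (38.6%) were pseudogenes or members of the F-box and MATH or BTB lists. All pseudogenes together took 3420 to 3773 CPM in 40Q, here per library total, and 3795 to 4201 in nhr-1(vlt16), with no overlap between the genotypes. In the unc-1(vlt10) background the pseudogenes had a median of -0.13. There 15 of the 412 were called higher and 24 lower, where 3.46% and 2.22% of all genes were. This class was chosen after its values had been seen, and its members are often close copies of coding genes that can share reads with them.

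Called genes were spread unevenly over the chromosomes. They made up 2.2% of all genes tested, and 3.84% of those on chromosome V, 2.76% on IV, 2.49% on II, 1.51% on X, 1.3% on I and 0.856% on III. Around F56A4.3 on chromosome V, a gene chosen for its fall, 3 of the 7 tested genes within 100 kb were called lower, against 1.12% of all genes. They were F56A4.3 itself, the neighbouring C-type lectin gene F56A4.2 at -1.63 ± 0.12, and mct-2 at -1.20 ± 0.24. mct-2, a member of the monocarboxylate transporter family, was at -0.83 without replicate 4 of 40Q and not called. Of the 4 genes not called, mct-1 was higher at 1.49 (edgeR adjusted p = 0.0904) and the others were lower.

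Of 23 tested genes of amino acid transport and of the methionine cycle, which supplies methyl groups, 8 (34.8%, against 22.1% of all genes) were lower and 2 higher at the adjusted p alone, 13 did not pass, 0 were called by edgeR (9 lower and 2 higher at an unadjusted p below 0.05) and the median was -0.05. Methionine synthase metr-1 was lower at -0.38 (500 to 383 CPM as means), cystathionine gamma-lyase cth-1 at -0.49 (120 to 85.3 CPM) and the adenosylhomocysteinase ahcy-1 at -0.27 (1752 to 1455 CPM). The S-adenosylmethionine synthetase sams-2 was higher at 0.93 (2.11 to 4.04 CPM), and all of these passed the adjusted p without reaching 2-fold. The 14 tested mitochondrial genes had a median of -0.36, with 10 lower at the adjusted p alone, and took 12162 to 20579 CPM in 40Q and 11652 to 14808 in the mutant, which overlap.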
